A study of Mus musculus with 10 samples.

Results

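The comparison set GFP+ CD4+ T cells of Foxp3(gfpko/wt) mice (GFPko) against GFP- CD25+ CD4+ T cells of Foxp3(gfp/gfp) mice (CD25pos), in 2 pairs of arrays, 1 pair from untreated mice and 1 from mice given IL-2. These 4 arrays, 1 per group, were chosen from the 10 of the series by their labels. The gfpko allele makes green fluorescent protein (GFP) in place of Foxp3, and the gfp allele makes Foxp3 joined to GFP. Because Foxp3 is X-linked and 1 X chromosome is silenced per cell, the GFP+ cells of a gfpko/wt female are those that read the locus from the allele without Foxp3, while cells using the wild-type allele can become regulatory T cells in the same animal. The mice were females of 6 to 8 weeks. Both lines came from 129/Sv, with 5 generations of backcross to C57BL/6 for gfpko and 8 to 10 for gfp, so population and line cannot be told apart in any result below. Treated mice of both lines received IL-2 at 50 ng per g of body weight in each of 4 injections within 24 h, and cells were taken 30 min after the last. Whether the untreated mice received the vehicle is not stated in the labels. Lymph node and spleen cells were pooled, taken through a magnetic bead step and then flow sorted. GFP was part of both sorts and CD25 only of the CD25pos sort.

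Foxp3 is the transcription factor that specifies regulatory T cells, which restrain other T cells and depend on IL-2 because they make little of it themselves. CD25 (Il2ra) is the chain that gives the IL-2 receptor its high affinity, and conventional CD4+ cells that carry it have usually met antigen, so that they include effector and memory cells. Helper T cells are commonly sorted by their cytokines and factors into Th1 cells (Ifng, Tbx21), Th2 cells (Il4, Gata3) and Th17 cells (Il17a), and the comparison asks how the 2 kinds of Foxp3-negative cell differ in such programs.

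Values are the deposited log2 expression values, and differences are GFPko minus CD25pos on the log2 scale, where 1 means 2-fold. Wherever 2 values are given for a population, the first is from untreated and the second from IL-2-treated mice. The median over all probe sets, taken as the level of background, was 3.04 to 3.22 on the 10 arrays. The Actb controls read 3′ minus 5′, a measure of shortened product, gave 3.69 and 2.76 in GFPko and 3.80 and 2.86 in CD25pos cells, close within each pair and lower on the IL-2 arrays of both populations. The T cell genes Cd3d, Cd3e and Cd3g lay between 11.89 and 12.89 on all 4 arrays. Cd4 lay at 10.30 and 10.78 in GFPko and at 10.45 and 10.43 in CD25pos cells. Cd8a was at background, between 3.15 and 3.21.

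Among 11939 genes, 128 (1.07%) were at least 2-fold higher in GFPko cells in both pairs and 237 (1.99%) at least 2-fold lower in both. A single gene, Ddit4, differed at least 2-fold in opposite directions (0.00838%). Of the 802 genes that differed 2-fold in the untreated pair, 724 (90.3%) had the same sign in the IL-2 pair, and 45.5% differed 2-fold there too. Of the 689 genes 2-fold apart in the IL-2 pair, 625 (90.7%) kept their sign in the untreated pair, and 53% differed 2-fold in both. Across genes, which are not independent replicates, the differences of the 2 pairs correlated with r = 0.63.

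**Figure D1:**
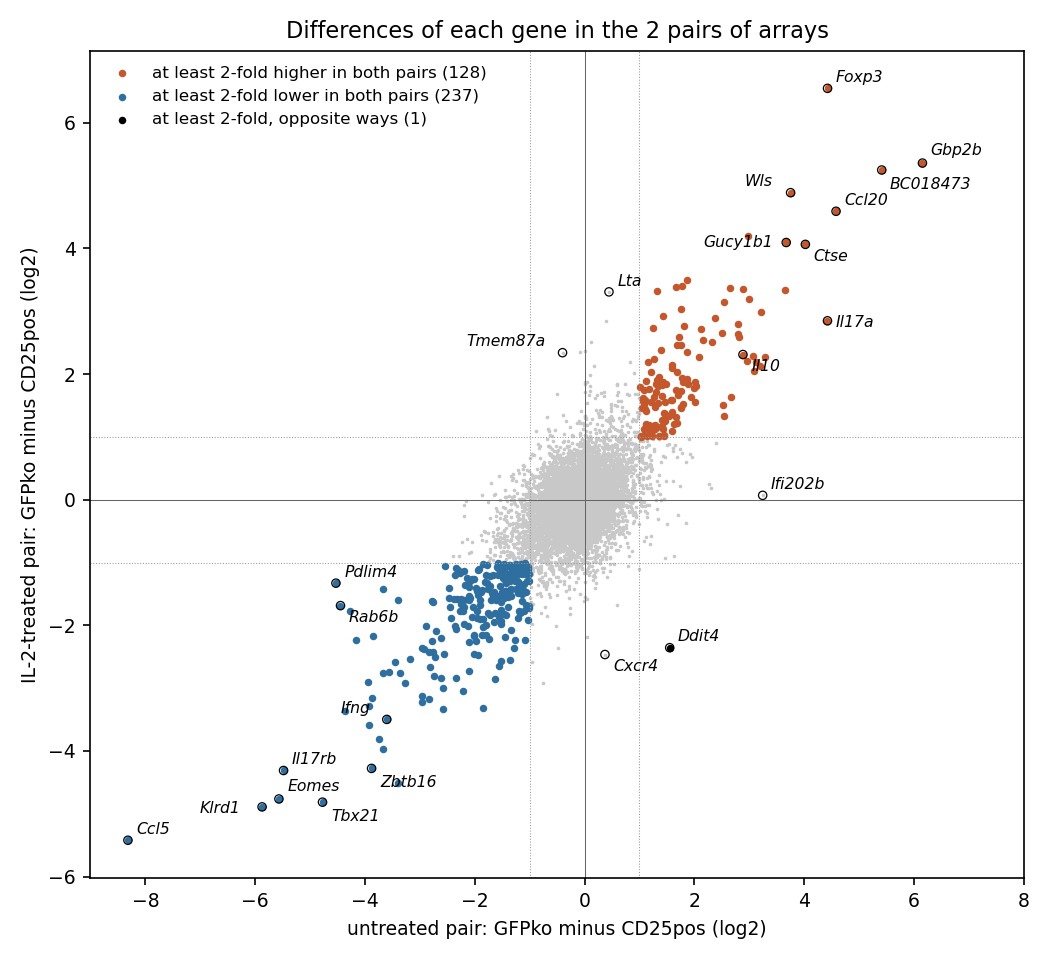
Each point is a gene, with its difference GFPko minus CD25pos (log2) in the untreated pair on the horizontal axis and in the IL-2-treated pair on the vertical axis. Dotted lines mark 2-fold. The 128 genes at least 2-fold higher in both pairs (orange) and the 237 at least 2-fold lower (blue) fill opposite corners, and Ddit4 (black) is the only gene past 2-fold in opposite directions.

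A fit across all genes with limma, on the 6 arrays of GFPko, CD25pos and Foxp3-expressing GFP+ cells (GFPfoxp3) with and without IL-2, called 149 genes higher (1.25%) and 267 lower (2.24%) in GFPko cells at a Benjamini-Hochberg adjusted p under 0.05. All 416 called genes had the same sign in both pairs, and 285 were also 2-fold apart in both. Counts of called genes in the lists below are to be read beside these shares of all genes. A short list with none called does not stand apart from them. With no replicate array in any group, these p-values measure how alike the step from untreated to IL-2 was in the 3 populations, GFPfoxp3 included. They do not measure how repeatable the differences are between animals. A gene whose 2 pairs agree can thus miss a call, as Id2 did (-1.51 and -1.62, adjusted p = 0.0658, limma). The calls rest on the 6-array spread: with only the 4 arrays limma called 0 genes, while 624 higher and 1284 lower genes had an unadjusted p under 0.05, and without any 1 of the 6 arrays it also called 0, with 512 to 1259 higher and 876 to 2020 lower genes at an unadjusted p under 0.05. A gene is therefore described first by its values in both pairs, and "rose", "fell" and "called" refer to the 6-array fit, whose adjusted p and moderated standard error (SE) are given. Centring each array on the median of the genes kept shifts all differences up by 0.14 and turned the split of 149 higher and 267 lower calls into 443 higher and 415 lower.

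The Foxp3 locus itself came first as the check of the labels. Foxp3 lay at 8.33 and 9.39 in GFPko cells, against 3.90 and 2.85 in CD25pos cells, a difference of 5.49 ± 0.52 (SE, adjusted p = 0.0267, limma). Of the CD25pos arrays only the untreated one was above its median, and in GFPfoxp3 cells Foxp3 reached 10.86 in both states. Since GFP reports this locus and was used to sort, the difference is a property of the selection, and it shows a transcript of the locus, not the protein. In such pooled cells, fewer cells of a type and less RNA per cell cannot be told apart.

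Of 36 regulatory T cell genes measured, 9 rose and 4 fell, 14 were 2-fold higher in both pairs and 3 lower, and the list's median difference was 0.82, against -0.01 over all genes. Foxp3, whose difference came with the selection, is among the 9 and the 14. Il2ra, which encodes the CD25 used in the CD25pos sort, is among the 14. Ikzf4, which encodes Eos, a zinc-finger partner of Foxp3, lay at 10.24 and 9.80 in GFPko cells, against 7.42 and 7.22 in CD25pos cells (2.70 ± 0.15, adjusted p = 0.0166). Its GFPko values were as high as the 9.65 and 9.70 of GFPfoxp3 cells. Ikzf2, which encodes Helios of the same family, stood at 11.26 and 11.52 in GFPko and 9.83 and 9.64 in CD25pos cells, with 12.43 and 12.42 in GFPfoxp3 cells. The differences of its 3 probe sets ranged from 0.18 to 2.09.

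Il10, an inhibitory cytokine, lay at 7.11 and 5.93 in GFPko cells, against 4.23 and 3.62 in CD25pos cells (2.60 ± 0.17, adjusted p = 0.0191). GFPfoxp3 cells had nearly the same Il10 values as GFPko cells, 7.14 and 6.08. Ctla4, an inhibitory receptor of activated and regulatory T cells, lay at 12.09 and 12.36 in GFPko cells, against 10.50 and 10.96 in CD25pos cells, and was 2.83-fold higher (adjusted p = 0.0312). Nt5e, which encodes the ectonucleotidase CD73 that makes adenosine, differed by 1.79 ± 0.12. The other members that rose were Ecm1 (2.29), Capg (1.53) and Itgae (1.12), the last encoding the integrin chain CD103. Gpr83, an orphan-type receptor abundant in regulatory T cells, was 2-fold higher in both pairs, with 1.87 untreated and 3.49 after IL-2, but missed the threshold (adjusted p = 0.0625).

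The 4 regulatory T cell genes that fell were Gzmb, Nrn1, Ebi3 and Icos. Nrn1, a small surface protein first described in neurons, lay at 5.51 and 5.99 in GFPko cells, against 7.54 and 7.70 in CD25pos cells. Ebi3, a subunit of the cytokines IL-27 and IL-35, lay at 4.50 and 5.00 in GFPko and 6.54 and 6.26 in CD25pos cells. In GFPfoxp3 cells both exceeded either population, with Nrn1 at 10.79 and 10.69 and Ebi3 at 8.34 and 8.21. Itgae, although called higher in GFPko cells, showed a similar gap: 7.04 and 6.70 in GFPko and 5.82 and 5.68 in CD25pos, with 11.28 and 11.09 in GFPfoxp3 cells. Icos, a costimulatory receptor, fell by 0.88, less than 2-fold.

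Th17 genes held some of the largest increases and also decreases. Of 15 measured, 4 rose (Ccl20, Il17a, Ccr6 and Ahr) and 2 fell (Cxcr6 and Rora), all of them 2-fold in both pairs, and the median difference was 0.42. Il17a, the cytokine that names the lineage, lay at 8.05 and 6.36 in GFPko cells, against 3.63 and 3.51 in CD25pos cells (3.64 ± 0.44, adjusted p = 0.0378). Its adjusted p was 0.0504 after quantile normalization. Il17a was near background in the GFPfoxp3 cells too, at 3.22 and 2.99, so GFPko cells alone of the 3 populations had a clear signal. Ccl20, the chemokine that Ccr6 binds, lay at 8.27 and 8.04 in GFPko cells, against 3.69 and 3.44 in CD25pos cells (4.59 ± 0.12, adjusted p = 0.00557). The differences of the 2 pairs were nearly equal, 4.58 and 4.59.

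Ccr6, the receptor of Ccl20, rose as well, to 10.01 and 9.49 in GFPko cells, against 7.85 and 6.95 in CD25pos cells (2.35 ± 0.21). Ahr, a ligand-activated transcription factor used by Th17 cells, was higher by 2.07 ± 0.25. Rora, a nuclear receptor of the Th17 program, went the other way, at 7.62 and 6.77 in GFPko and 8.72 and 8.54 in CD25pos cells (-1.44 ± 0.20, adjusted p = 0.0487). Cxcr6, a chemokine receptor of effector cells of several kinds, fell by 2.72 ± 0.24. Il17f, Il22 and Il23r were not analysed here.

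The promoters of Il17a and Ccl20 are shown because these genes rose together and many nuclear receptors, Rora among them, bind a core of the letters AGGTCA. Each stretch is the 250 bases before the start of the RefSeq gene (build GRCm38.p6, read along the + strand), and capitals mark a match to AGGTCA or its reverse complement. Il17a lies at chr1:20730655-20730904 and Ccl20 at chr1:83116516-83116765.
Il17a: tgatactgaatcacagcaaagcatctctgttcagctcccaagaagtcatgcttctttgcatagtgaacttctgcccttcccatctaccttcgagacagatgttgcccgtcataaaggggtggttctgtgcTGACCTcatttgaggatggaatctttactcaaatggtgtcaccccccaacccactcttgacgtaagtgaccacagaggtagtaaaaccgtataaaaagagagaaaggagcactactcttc
Ccl20: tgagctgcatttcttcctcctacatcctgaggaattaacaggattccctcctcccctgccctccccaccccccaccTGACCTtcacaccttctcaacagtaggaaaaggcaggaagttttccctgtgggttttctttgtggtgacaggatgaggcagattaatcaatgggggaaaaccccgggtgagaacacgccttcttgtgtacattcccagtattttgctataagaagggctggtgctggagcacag
Each window held 1 match, on the reverse strand. Such matches are common: 13 of 86 promoters of genes 2-fold higher in both pairs (15.1%) held one, as did 24 of 193 of those 2-fold lower (12.4%), 13.1% of the 9689 promoters of genes kept for the test and 15.8% of all 27025 promoters. Of the 128 higher and 237 lower genes, only these 86 and 193 had a promoter in the RefSeq table. The share of the AP-1 core TGANTCA, bound by Fos and Jun proteins, was 8.14% among the higher, 7.77% among the lower, 5.51% among the kept genes and 7.82% among all. The shares were not tested, and a match is a run of letters, not a site known to be bound.

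Of 14 genes of the Th1 program measured, 9 fell, all of them 2-fold in both pairs, none rose, 2 lay above 0 in both pairs, and the median difference was -2.50. Tbx21, which encodes T-bet, the factor that directs Th1 cells, lay at 5.27 and 4.70 in GFPko cells, against 10.04 and 9.51 in CD25pos cells (-4.79 ± 0.16, adjusted p = 0.00877). The related T-box factor Eomes lay at 3.84 and 3.75 in GFPko and at 9.41 and 8.51 in CD25pos cells (-5.17 ± 0.35, adjusted p = 0.0191). Ifng, the cytokine of Th1 cells, lay at 4.54 and 4.83 in GFPko and at 8.14 and 8.33 in CD25pos cells (-3.55 ± 0.12, adjusted p = 0.00877). For each of the 3 the populations were far apart, and both GFPko values were below all CD25pos ones.

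Ccl5, a chemokine of effector T cells and the largest decrease of all, lay at 3.47 and 5.90 in GFPko cells, against 11.79 and 11.32 in CD25pos cells (-6.87 ± 0.86, adjusted p = 0.0395). The IL-2-treated GFPko array was higher than the untreated one, and the pairs differed by -8.32 and -5.42. The adjusted p of Ccl5 was 0.0549 after quantile normalization. Cxcr3, a chemokine receptor of Th1 cells, lay at 7.46 and 8.29 in GFPko and 11.82 and 11.65 in CD25pos cells. Il18rap, a chain of the IL-18 receptor, fell by 3.82 ± 0.22, and Fasl, a death ligand, fell by 3.09 ± 0.23. Runx3, a factor of Th1 and CD8 cells, lay at 6.43 and 6.04 in GFPko and 8.10 and 7.58 in CD25pos cells. Xcl1, a chemokine, was not above background on either GFPko array and was at least 3.61-fold lower there.

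GFPfoxp3 cells, also from Foxp3(gfp/gfp) mice, shared the low Tbx21 (6.37 and 6.28), Eomes (4.03 and 4.49) and Ifng (4.92 and 4.88), but had Cxcr3 at 11.10 and 10.86 and Ccl5 at 9.82 and 9.07. Untreated CD25- conventional cells of such mice had Tbx21 at 8.10, Eomes at 6.13, Ifng at 6.35, Cxcr3 at 10.10 and Ccl5 at 10.26. Il12rb1, a chain of the receptors for IL-12 and IL-23, fell by 2.21 ± 0.21 in GFPko relative to CD25pos cells.

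**Figure D2:**
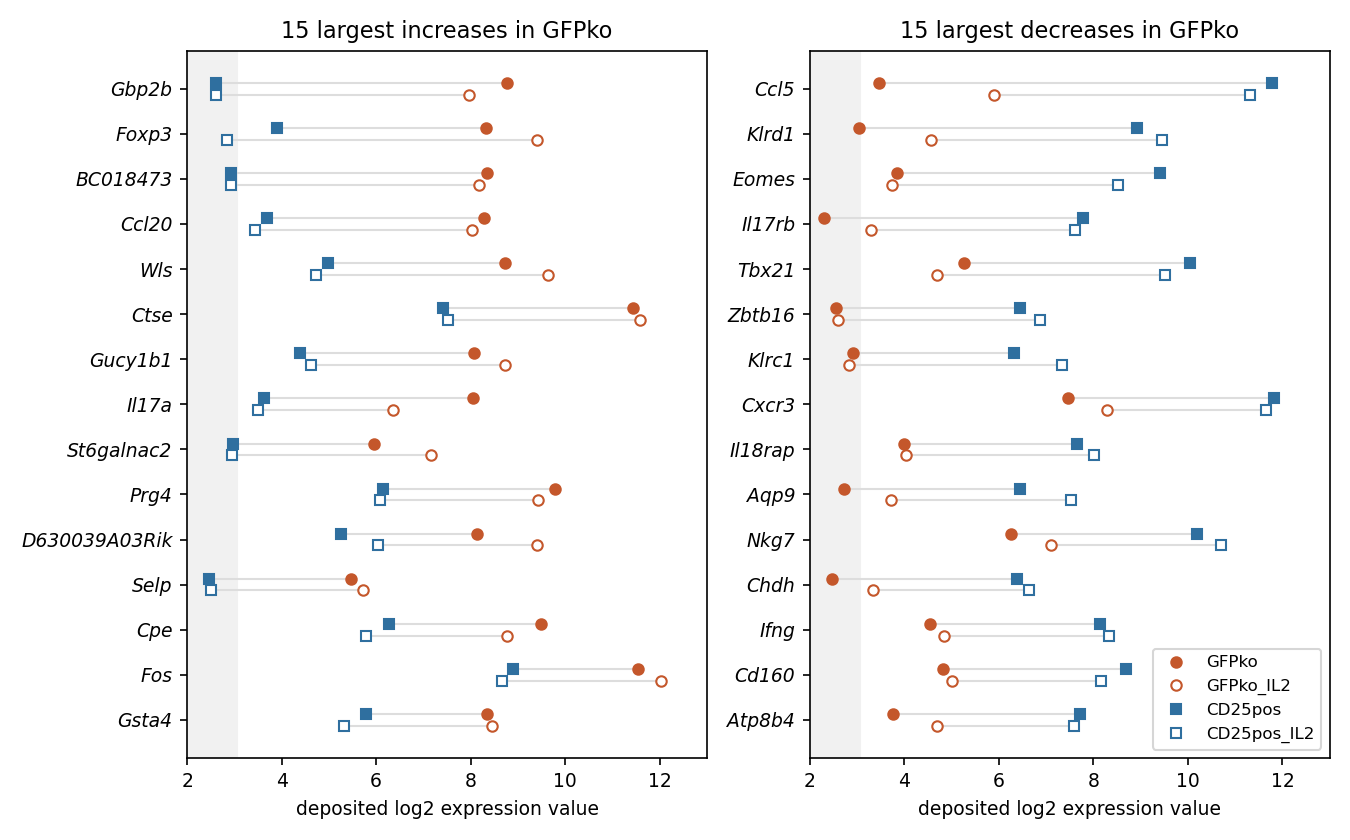
Deposited log2 values of the 15 largest increases (left) and the 15 largest decreases (right) among called genes at least 2-fold apart in both pairs. Circles are GFPko and squares CD25pos arrays, filled for untreated and open for IL-2-treated mice, and the grey band marks values below the array medians. Gbp2b, at 8.76 and 7.96 in GFPko and 2.61 and 2.60 in CD25pos, heads the left side, and Ccl5 the right.

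Of 15 cytotoxic genes, which include Ccl5, Fasl and Xcl1 of the Th1 list, 8 fell and none rose, with a median of -1.83, and of 11 killer receptor genes 4 fell and none rose, 6 of the 11 lying below 0 in both pairs. Klrd1, which encodes CD94, the partner chain of NKG2 receptors, lay at 3.04 and 4.57 in GFPko cells, against 8.91 and 9.46 in CD25pos cells (-5.38 ± 0.29, adjusted p = 0.0166). It was above the array median on only 1 of the 2 GFPko arrays. Klrc1, which encodes the NKG2A chain, was not above background in GFPko cells, at 2.91 and 2.83, against 6.31 and 7.34 in CD25pos cells, at least 13.3-fold lower. Klrk1, which encodes the activating receptor NKG2D, was likewise not above background and at least 2.65-fold lower, and Klrb1f fell by 2.41 ± 0.17.

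Nkg7, a protein of cytotoxic granules, lay at 6.26 and 7.11 in GFPko cells, against 10.19 and 10.69 in CD25pos cells (-3.75 ± 0.20, adjusted p = 0.0166). Crtam, an adhesion receptor of activated killer cells, was at least 7.89-fold lower. Gzmk and Prf1, a granzyme and the pore protein perforin, differed by -3.06 ± 0.35 and -1.66 ± 0.15. Gzmb, the granzyme of activated cells, lay at 2.85 and 4.29 in GFPko, 5.06 and 7.33 in CD25pos and 8.19 and 9.37 in GFPfoxp3 cells, and it was higher after IL-2 in all 3. Gzmk and Gzmb were each above the array median on 1 of the 2 GFPko arrays. Cd160, a receptor of killer and memory cells, fell by 3.51 ± 0.20 in GFPko cells.

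The promoter of Nkg7 is shown for matches to GGTGTGA, a core of letters bound by T-box factors such as T-bet and Eomes. It is the stretch of 250 bases before the RefSeq start (GRCm38.p6, + strand, chr7:43436888-43437137), with the match in capitals.
Nkg7: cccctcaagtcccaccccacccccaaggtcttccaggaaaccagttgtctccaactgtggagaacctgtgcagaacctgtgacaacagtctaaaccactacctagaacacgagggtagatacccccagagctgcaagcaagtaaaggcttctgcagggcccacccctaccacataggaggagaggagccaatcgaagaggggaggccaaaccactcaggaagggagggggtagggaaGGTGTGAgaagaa
The window held 1 match and none to AGGTCA, and the Ccl20 window above also held 1 match to GGTGTGA. It was found in 10 of the 193 promoters of genes 2-fold lower in both pairs (5.18%), 3 of the 86 of genes 2-fold higher (3.49%), 3.52% of those of the kept genes and 3.84% of all promoters, counted on both strands. These shares were not tested, and neither was any link between T-box factors and the level of Nkg7.

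Beside these lists, 3 of 6 markers of CD8 and NK cells measured fell, namely Klrd1, Eomes and Klrk1, which are also members of the lists above. The summed linear level of all 8 such markers with a probe set was 86.8 and 117 in GFPko and 1240 and 1139 in CD25pos cells. Klrd1 and Eomes made up most of the CD25pos sums: without these 2, a choice made after their values were seen, the sums were 64.2 and 79.6 in GFPko and 77.2 and 71.25 in CD25pos cells. Since the 2 were left out for their large differences, the closeness of these sums is no separate result. Of the others, Klrk1 lay at 2.30 and 2.28 in GFPko and 4.65 and 4.33 in CD25pos cells. Cd8b1 went the other way, at 4.86 and 5.53 in GFPko and 4.47 and 4.48 in CD25pos cells. Cd8a and Klra8 were near background on all 4 arrays, and Ncr1 and Itga2 were below the array medians throughout. Whether CD8 or NK cells were among the sorted cells was not tested.

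Zbtb16, which encodes PLZF, the factor of NKT and other innate-like T cells, was not above background in GFPko cells, at 2.56 and 2.59, against 6.44 and 6.87 in CD25pos cells. That is at least 11.9-fold lower (adjusted p = 0.00877). Il17rb, the receptor chain for IL-25 and not a member of the list of innate-like genes below, lay at 2.29 and 3.30 in GFPko, against 7.78 and 7.61 in CD25pos cells (-4.90 ± 0.30, adjusted p = 0.0166), above the array median on 1 of the 2 GFPko arrays. Of 6 gamma delta and innate-like genes measured, 1 fell (Zbtb16) and none rose, and their differences ran from -4.08 to 0.69. The gamma chain gene Trgv1 lay at 5.11 and 8.10 in GFPko and 8.78 and 9.52 in CD25pos cells (adjusted p = 0.136), and Trgv4 at 8.48 and 9.25 in GFPko and 9.43 and 9.67 in CD25pos cells (adjusted p = 0.124), compared with 5.04 for Trgv4 in CD25- conventional cells (CD25neg). The part of such cells in the decreases was not tested.

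Over 25 helper lineage factors, 4 rose (Foxp3, Ikzf4, Ahr and Ikzf2) and 5 fell (Eomes, Tbx21, Zbtb16, Runx3 and Rora). The rise of Foxp3 came with the selection, as described above. Id2, an inhibitor of E proteins, differed by -1.57 and was 2-fold lower in both pairs (adjusted p = 0.0658). Gata3, the Th2 factor, lay at 9.37 and 9.59 in GFPko and 9.28 and 9.45 in CD25pos cells, a difference of 0.11 ± 0.10 (adjusted p = 0.649). Of 9 Th2 genes, 2 rose (Il10 and Nfil3, a bZIP factor) and 1 fell (Epas1, a hypoxia-inducible factor, -1.65 ± 0.17). Il4, the Th2 cytokine, lay at 5.04 and 6.48 in GFPko and at 6.90 and 7.11 in CD25pos cells (adjusted p = 0.236).

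Of 16 effector cytokine genes, 3 rose (Il17a, Il10 and Tnfsf8, which encodes the CD30 ligand) and 2 fell (Ifng and Il2). Il2 was near background in GFPko cells, at 3.40 and 3.37, against 7.08 and 6.12 in CD25pos cells (-3.21 ± 0.28, adjusted p = 0.0224). GFPfoxp3 cells had Il2 values of 2.56 and 2.54. Of 19 genes of follicular helper T cells, 3 fell and none rose: Gpm6b (-1.85 ± 0.22), Sostdc1, which was at least 2.67-fold lower, and Icos. The median of the 19 was only -0.05, with 8 genes above and 9 below 0 in both pairs. Cxcr5, the receptor that brings cells to B cell follicles, lay at 2.89 and 4.04 in GFPko and 7.05 and 6.27 in CD25pos cells, 2-fold lower in both pairs but not called (adjusted p = 0.072), and Bcl6, the factor of that lineage, differed by -1.06 (adjusted p = 0.12).

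Several of the largest increases lay outside the helper programs. Gucy1b1 and Gucy1a1, the 2 subunits of soluble guanylyl cyclase, the receptor of nitric oxide that makes cGMP, rose together. Gucy1b1 lay at 8.07 and 8.72 in GFPko cells, against 4.39 and 4.63 in CD25pos cells (3.88 ± 0.16, adjusted p = 0.011). Gucy1a1 lay at 8.08 and 8.58 in GFPko and 5.29 and 5.77 in CD25pos cells (2.80 ± 0.13, adjusted p = 0.0151), although its 3 probe sets ranged from 0.27 to 2.80. In GFPfoxp3 cells Gucy1b1 stood at 4.50 and 5.21, close to CD25pos, and Gucy1a1 at 6.53 and 6.68.

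Ctse, which encodes cathepsin E, an endosomal protease, lay at 11.43 and 11.58 in GFPko cells, against 7.41 and 7.51 in CD25pos cells (4.04 ± 0.10, adjusted p = 0.00557), and at 7.23 and 7.40 in GFPfoxp3 cells. Wls, the carrier that brings Wnt proteins to the cell surface, lay at 8.72 and 9.62 in GFPko and 4.97 and 4.74 in CD25pos cells (4.32 ± 0.33). Prg4, the lubricating glycoprotein of joints, lay at 9.79 and 9.41 in GFPko, against 6.15 and 6.08 in CD25pos cells. Cpe, a carboxypeptidase that trims peptide hormones, Gsta4, a glutathione transferase, and D630039A03Rik rose by 3.10 ± 0.27, 2.84 ± 0.18 and 3.12 ± 0.16. In GFPfoxp3 cells Prg4 stood at 9.56 and 9.31, Gsta4 at 8.73 and 8.63 and D630039A03Rik at 7.74 and 8.54. These were nearer to GFPko than to CD25pos cells. Wls, at 7.53 and 7.33 there, lay between the other populations, and Cpe, at 6.49 and 6.76, was nearer to CD25pos cells.

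For 4 of the 15 largest increases the CD25pos arrays were not above background, so that the fold is a lower bound. Gbp2b, an interferon-induced guanylate-binding protein, was at least 39.2-fold higher in GFPko cells, BC018473 at least 36.6-fold, St6galnac2, a sialyltransferase, at least 11.2-fold and Selp, which encodes P-selectin, at least 5.72-fold. The log2 differences of the 3 Selp probe sets ranged from 0.82 to 3.10. Gbp2b lay at 9.17 and 9.11 in GFPfoxp3 cells and at 2.60 in untreated CD25neg cells, both from Foxp3(gfp/gfp) mice. BC018473 and St6galnac2 lay at 2.90 and 2.84 and at 2.74 in GFPfoxp3 cells, so among GFPko, CD25pos and GFPfoxp3 cells they were above background in GFPko cells alone. The largest decreases outside the groups above were Aqp9, a channel for water and glycerol (-3.77 ± 0.36), Chdh, choline dehydrogenase (-3.60 ± 0.23), and Atp8b4, a phospholipid flippase (-3.42 ± 0.29). Aqp9 and Chdh were above the array median on 1 of the 2 GFPko arrays.

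Receptors for chemokines and lipids split by gene. Of 17 measured, 2 rose (Ccr6 and S1pr1, the receptor that lets cells leave lymphoid organs) and 3 fell (Cxcr3, Cxcr6 and Ccr2). S1pr1 lay at 9.77 and 9.92 in GFPko and 8.54 and 8.82 in CD25pos cells. Ccr2, the receptor of monocyte chemokines, lay at 8.09 and 7.93 in GFPko and 9.70 and 9.53 in CD25pos cells (-1.60 ± 0.12), its 4 probe sets ranging from -1.60 to -0.11. Gpr15 was 2-fold higher in both pairs (adjusted p = 0.0793), and Ccr9, the receptor of gut-homing cells, 2-fold lower (adjusted p = 0.067), although its 5 probe sets gave differences from -1.71 to 0.40. Of 27 cytokine receptor genes, none rose and 2 fell, Il18rap and Il12rb1, where 1.25% of all genes rose and 2.24% fell. Il7r, a survival receptor of resting T cells, differed by -0.79 and -1.80 in the 2 pairs and Il4ra by 0.35 and 1.72, neither called.

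Of 13 integrin genes, 2 rose (Itga6, by 1.45 ± 0.18, and Itgae) and 1 fell (Itgb1, -1.44 ± 0.12), although the 5 probe sets of Itgb1 ranged from -1.44 to 0.08. Among 16 genes of the tumour necrosis factor superfamily 1 rose, Tnfsf8, and 1 fell, Tnfsf14, which encodes LIGHT (-2.60 ± 0.34). Tnfrsf18, which encodes GITR, differed by 0.78 ± 0.16 (adjusted p = 0.0895). Of 19 inhibitory and activation receptors, Ctla4 rose and Cd160, Cd44 and Icos fell. Cd44, a marker of antigen-experienced cells, lay at 9.60 and 9.64 in GFPko and at 10.83 and 10.84 in CD25pos cells (-1.22 ± 0.10, adjusted p = 0.021).

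Genes of memory T cells were mostly lower where they were called. Of 20, 5 fell and 1, Capg, rose. The list's median difference was only -0.08, with 8 genes above and 10 below 0 in both pairs. Anxa1, a calcium-dependent membrane-binding protein, lay at 4.69 and 4.61 in GFPko cells, against 7.42 and 7.43 in CD25pos cells (-2.77 ± 0.10, adjusted p = 0.00877). Lgals3, which encodes galectin-3, and S100a6 differed by -1.79 ± 0.20 and -1.10 ± 0.13, beside Itgb1 and Cd44. Of 14 genes of naive T cells, S1pr1 rose and Pde3b and Dapl1 fell. Dapl1 lay at 7.65 and 7.84 in GFPko and 9.15 and 9.39 in CD25pos cells, and Klf2, the factor upstream of S1pr1, was 1.07 higher without a call (adjusted p = 0.0895).

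Several IL-2 targets lay higher in GFPko cells, some mainly after IL-2. Of 23 genes of the IL-2 and STAT5 response, 3 rose (Cish, Nfil3 and Bcl2) and 2 fell (Gzmb and Odc1), 6 were 2-fold higher in both pairs, and the median was 0.95. The median was 0.27 in the untreated pair and 1.01 in the IL-2 pair, and 17 of the 23 genes (73.9%) had a larger difference in the IL-2 pair, against 50.9% of all genes. Larger here means further up, so that less negative differences count too. Across the lists this share ran from 14.3% (naive genes) to 85% (ribosome biogenesis). It was 75% for T cell markers and 78.6% for Th1 genes, so a high share is not particular to IL-2 targets. Il2ra lay at 9.58 and 11.28 in GFPko cells, against 7.91 and 7.90 in CD25pos cells, 2-fold higher in both pairs but not called (2.52 ± 0.44, adjusted p = 0.0701). CD25 was the gate for the CD25pos cells, and GFPko cells were not gated on it.

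Lta, which encodes lymphotoxin alpha, lay at 7.59 and 11.06 in GFPko cells, against 7.14 and 7.75 in CD25pos cells. Its difference was 0.45 untreated and 3.31 after IL-2. Myc lay at 8.50 and 10.60 in GFPko and 8.40 and 8.61 in CD25pos cells. Socs2, a STAT5-induced feedback inhibitor, was 1.43 higher untreated and 2.93 higher after IL-2 (adjusted p = 0.0714), although its 6 probe sets gave mean differences from -0.0061 to 2.32. Osm, a cytokine of the IL-6 family, was 0.91 and 2.02 higher. Tnfrsf4, which encodes OX40, followed with 0.22 and 1.66. For each of these genes the GFPko and CD25pos arrays lay further apart after IL-2 than without it.

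Cish, another STAT5-induced inhibitor, did not share that pattern. It lay at 10.07 and 11.15 in GFPko cells, against 8.50 and 9.56 in CD25pos cells, so that the IL-2 array was higher in both populations and the pairs differed equally, by 1.58 and 1.59 (adjusted p = 0.0166). Bcl2, the survival gene, lay at 11.84 and 12.24 in GFPko and at 10.53 on both CD25pos arrays (1.51 ± 0.18, adjusted p = 0.0384). It was the only called gene of 18 in the apoptosis list. Pim1, a kinase induced by STAT5, was 2-fold higher in both pairs (adjusted p = 0.0611). Whether the IL-2 response itself differs between the populations has 1 array on each side of each step and was not tested.

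Of 33 cell cycle genes measured, 13 fell and none rose, 12 were 2-fold lower in both pairs, 32 were negative in both, as were 3964 of all 11939 genes, and the median was -1.02. Birc5, which encodes survivin, lay at 5.51 and 7.29 in GFPko cells, against 7.14 and 8.82 in CD25pos cells (-1.58 ± 0.10, adjusted p = 0.0166). Aurka, a mitotic kinase, lay at 2.37 and 4.13 in GFPko and 4.24 and 6.28 in CD25pos cells, above the array median on 1 of the 2 GFPko arrays. Rrm2, a subunit of ribonucleotide reductase, and Cdc6, a replication licensing factor, differed by -1.22 ± 0.10 and -1.13 ± 0.10.

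Mki67, the proliferation marker Ki-67, lay at 8.18 and 10.01 in GFPko and 9.16 and 10.95 in CD25pos cells (adjusted p = 0.0472). The IL-2 arrays were higher in both populations by similar amounts, so the pairs differed by -0.97 and -0.94. Cenpf, a kinetochore protein, fell by 1.72 ± 0.17 and Mcm7, a helicase subunit, fell by 0.84 ± 0.10, while Ccnb2, a mitotic cyclin, was 2-fold lower in both pairs and not called (adjusted p = 0.0712).

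**Figure D3:**
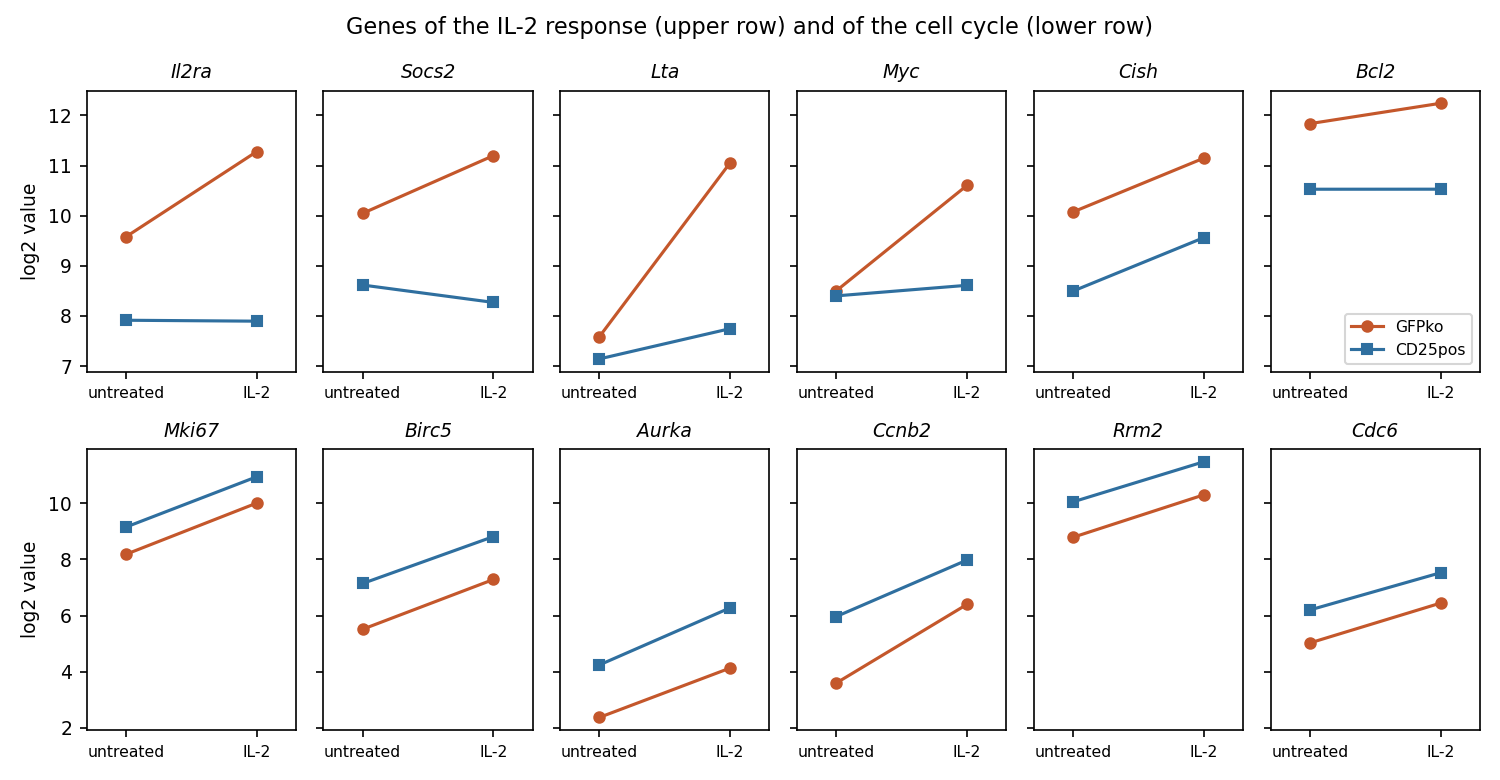
Log2 values in untreated and IL-2-treated mice for 6 genes of the IL-2 response (upper row) and 6 of the cell cycle (lower row), with circles for GFPko and squares for CD25pos, each point 1 array. Il2ra, Socs2, Lta and Myc lay further apart after IL-2, as for Lta (0.45 untreated, 3.31 after IL-2), while the lines of Cish, Mki67 and Cdc6 run nearly parallel.

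Of 20 ribosome biogenesis genes, 5 fell and none rose, 1 was 2-fold lower in both pairs, and the median was -0.50. It was -0.85 in the untreated and -0.17 in the IL-2 pair. Rrp12 and Wdr12, factors of ribosome assembly, both fell by 1.14. Of 14 glycolysis genes 3 fell: Hk2 (-1.36 ± 0.17), Tpi1 (-1.32 ± 0.11) and Pgam1 (-0.90 ± 0.10), which encode hexokinase 2, triosephosphate isomerase and phosphoglycerate mutase. Of 13 sterol synthesis genes none was called, which is near the share over all genes (1.25% higher, 2.24% lower). The largest difference among them was that of Mvd (0.53, adjusted p = 0.257).

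**Figure D4:**
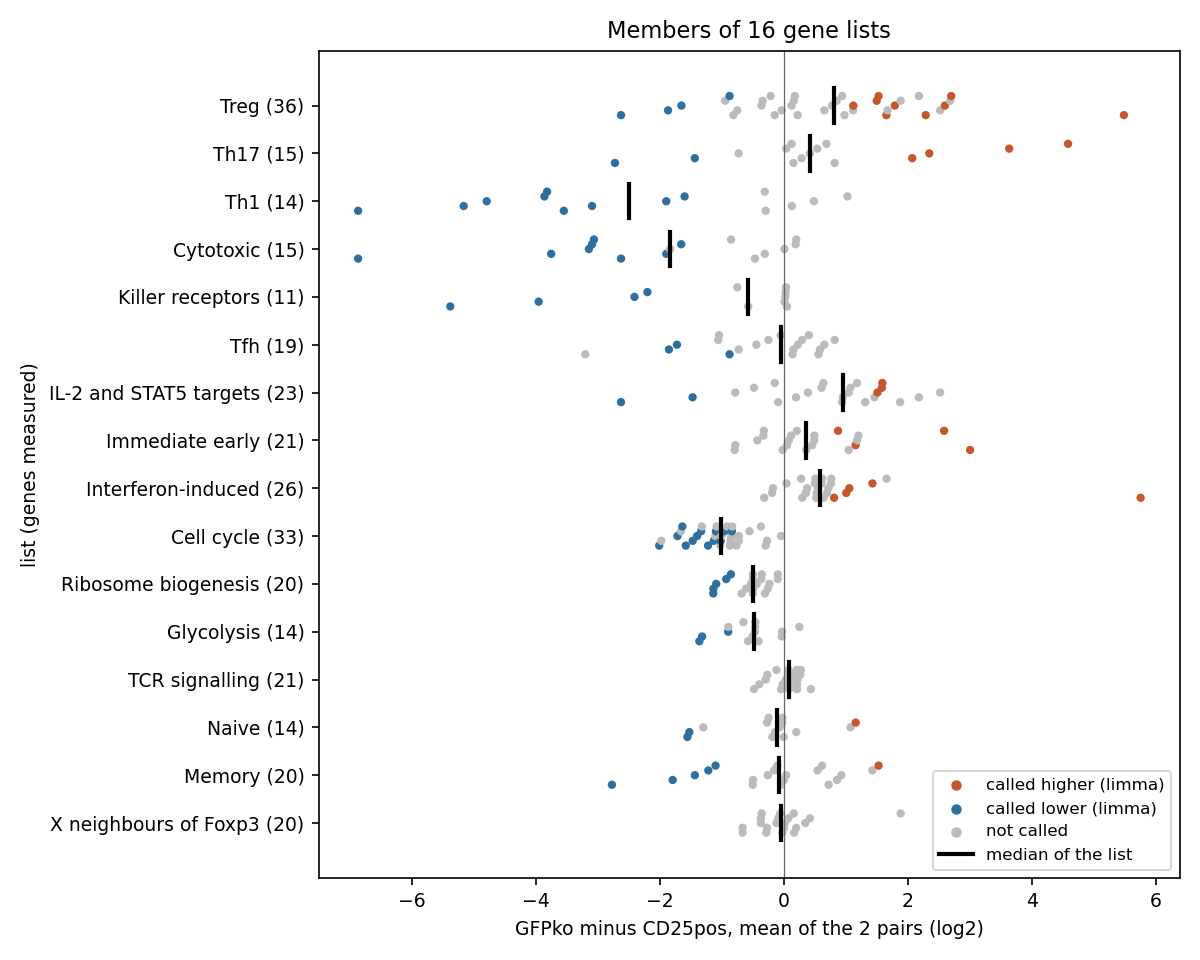
Each point is a gene of 1 of 16 lists, at its difference GFPko minus CD25pos (mean of the 2 pairs, log2), coloured where limma called it and grey elsewhere. Black bars are list medians, lowest for Th1 genes (-2.50) and highest for IL-2 and STAT5 targets (0.95), and the number of genes measured stands beside each name.

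Among 21 immediate early genes, 4 rose and none fell. Fos lay at 11.55 and 12.02 in GFPko cells, against 8.90 and 8.65 in CD25pos cells (3.01 ± 0.37, adjusted p = 0.0384). Jun, its partner in the AP-1 factor, lay at 9.33 and 7.84 in GFPko and 6.37 and 5.62 in CD25pos cells (2.59 ± 0.31, adjusted p = 0.0375). Klf6 and Junb were 1.16 ± 0.11 and 0.87 ± 0.10 higher, and Dusp1, a phosphatase that switches off MAP kinases, was 2-fold higher in both pairs without a call (adjusted p = 0.0625). The 5 probe sets of Klf6 ranged from 0.36 to 1.44. None of 21 genes of T cell receptor signalling was called, which is near the share over all genes (1.25% higher, 2.24% lower). The largest difference among them was that of Themis (-0.48, adjusted p = 0.107). Dusp4, another phosphatase of the pathway, was 1.16 and 2.19 higher (adjusted p = 0.0634).

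Of 22 genes of cAMP signalling none rose and 3 fell. Pde3b, a phosphodiesterase that breaks down cAMP, lay at 10.22 and 9.92 in GFPko, against 11.62 and 11.63 in CD25pos cells (-1.56 ± 0.12, adjusted p = 0.0207), and at 6.06 and 5.90 in GFPfoxp3 cells. Pde7a, another phosphodiesterase, differed by -0.98 ± 0.11 and Prkar2a, a protein kinase A regulatory subunit, by -1.14 ± 0.09, while Prkar1b, a further such subunit, was 2-fold higher in both pairs without a call (adjusted p = 0.0744). The 7 probe sets of Pde7a ranged from -1.36 to -0.19. Of 18 TGF-beta pathway genes only Skil, a repressor of SMAD proteins, was called (0.88 ± 0.11), and Tgfbr1, a receptor chain, was just outside the threshold at 1.18 (adjusted p = 0.0505). Of 10 regulators of G protein signalling, Rgs1 rose (1.85 ± 0.14), at 10.59 and 12.48 in GFPko and 8.82 and 10.55 in CD25pos cells, and Rgs3 fell (-1.30 ± 0.11), its 3 probe sets ranging from -1.30 to 0.07.

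Of 26 interferon-induced genes, 5 rose and none fell, 21 were positive in both pairs, as were 3093 of all 11939 genes, and the median was 0.58. Beside Gbp2b these were Usp18, a protease that removes ISG15 (1.43 ± 0.11, adjusted p = 0.0207), Isg20 (1.06 ± 0.14), Ifit1 (1.01 ± 0.13) and Gbp6 (0.81 ± 0.11), and Gbp2b and Usp18 alone were 2-fold higher in both pairs. Ifi202b, an interferon-induced gene whose level differs among inbred strains, was above background in untreated GFPko cells only, at 6.09, against 2.92 in GFPko cells after IL-2 and 2.84 and 2.85 in CD25pos cells. Of 20 measured genes near Foxp3 on the X chromosome, none was called, which is near the share over all genes (1.25% higher, 2.24% lower). Gata1 alone of the 20 was 2-fold apart in both pairs, at 6.42 and 7.36 in GFPko and 5.02 and 4.98 in CD25pos cells (adjusted p = 0.0578). It lay at 7.72 and 7.68 in GFPfoxp3 cells.

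Markers of other cells were mixed in level and direction. Of 6 B cell markers measured, Cd79b rose, at 5.02 and 5.36 in GFPko and 3.26 and 3.88 in CD25pos cells. Cd22 (-3.01, adjusted p = 0.0583) and Ighm (-1.05, adjusted p = 0.0543) were lower without a call. Ighm was high on all 4 arrays, at 10.35 and 9.8 in GFPko and 11.17 and 11.09 in CD25pos cells. Its 7 probe sets gave differences from -1.05 to 0.30. Cd79a and Pax5 were below the array medians on all 4 arrays. None of 5 myeloid markers was called, and 8 of the 12 with a probe set were below the medians throughout. Fcgr3 lay at 5.48 and 4.52 in GFPko and 3.87 and 3.69 in CD25pos cells, and Lyz2 was above 5 only in GFPko cells after IL-2, at 5.71. The summed linear level of the myeloid list was 111 and 137 in GFPko and 80.2 and 77.8 in CD25pos cells. None of 5 markers of erythroid and plasma cells and none of 8 T cell markers was called. Xbp1 of the erythroid and plasma cell list was high, at 10.77 and 11.69 in GFPko and 10.793 and 10.785 in CD25pos cells.

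The 2 pairs differed at least 4-fold from each other for 28 genes. Ddit4, a stress- and glucocorticoid-induced inhibitor of mTORC1, lay at 12.23 and 9.48 in GFPko, against 10.67 and 11.84 in CD25pos cells, a difference of 1.55 untreated and -2.36 after IL-2. Cxcr4, the receptor of the chemokine CXCL12, was at similar levels in 3 of the arrays and low in the treated GFPko array, with 8.67 and 5.88 in GFPko and 8.30 and 8.34 in CD25pos cells. Tmem87a stood out in the same array in the other direction, at 5.38 and 8.32 in GFPko and 5.78 and 5.98 in CD25pos cells.

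Pdlim4, a cytoskeletal adaptor, and Rab6b, a small GTPase of Golgi transport, were lower in both pairs but by unequal amounts. Pdlim4 lay at 2.92 and 6.39 in GFPko, against 7.45 and 7.72 in CD25pos cells, and Rab6b at 3.60 and 6.28 in GFPko and 8.05 and 7.97 in CD25pos cells. For both the treated GFPko array was the nearer to CD25pos, as it was for Ccl5. Since each such value is 1 array, a response to IL-2 and an array of its own cannot be told apart for these genes.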

How the data were processed

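Affymetrix mouse arrays were hybridised with RNA of sorted CD4+ T cells. Per the labels' protocols, RNA was extracted with Stat-60 and amplified in 2 rounds with a MessageAmp II kit, which favours 3′ sequence. The deposited log2 values were normalized together over 10 arrays, per the series' design text. The method and software were not given in the sources used here, and the log2 scale was read from the range of the values.

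Of 45101 probe sets, 34958 had 1 gene in the platform annotation, 932 several and 9211 none, and symbols of 34754 were updated by Entrez ID through the GRCm38.p6 gene table. Genes (18194) were kept where at least 1 array reached its median (11939), and each was read by its brightest probe set. Groups came from the sample titles. The main fit was limma 3.58.1 in R 4.3.3, with population and IL-2 as terms over 6 arrays (2 residual degrees of freedom, 2.23 prior ones), with Benjamini-Hochberg adjustment over all kept genes. It was also run on data simulated with independent noise around this same additive model. That run checks the working of the fit and cannot show how repeatable the calls are. Where both arrays of the lower side lay below their medians, the fold was bounded against those medians ("at least").

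The comparison, its 35 gene lists and the rule for named genes were chosen with earlier results of these data known. The rule named the 15 largest increases and decreases among called genes at least 2-fold apart in both pairs, the 6 largest differences of each list, markers, the 8 largest gaps between pairs, Foxp3, Il2ra and Pde3b. A further 20 genes, 19 of them list members, were named after their values were seen. Promoters were cut from the RefSeq table without the bases after the start.

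Alternatives were other normalizations, filters and probe-set rules, a 3-fold threshold, an intensity trend with robust variance, only the 4 arrays, and leaving out each array. Fits of 1 pair with the spread of the 6 arrays were added after seeing the data. With 1 array per group, precision is limited by the number of arrays.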

Additional observations from a re-analysis of the deposited data

Results flagged for a closer look

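Genes described in the text above whose 2 pairs of arrays lay on opposite sides of 0 are given here. The difference between the pairs was not tested, since each value is 1 array minus another. Ddit4 was 1.55 higher in GFPko than in CD25pos cells untreated and differed by -2.36 after IL-2. Cxcr4 differed by 0.37 untreated and -2.46 after IL-2. Tmem87a differed by -0.40 untreated and 2.34 after IL-2, and Lyz2, a myeloid marker, by -0.090 untreated and 2.35 after IL-2. The T cell genes used as a check of the sorts moved by less than 0.4 on either side of 0: Cd4 by -0.15 and 0.35, Cd3e by -0.14 and 0.052, and Cd3g by -0.033 and 0.22.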

How the results depend on the processing

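The limma counts were the results that moved most. Against 149 genes higher and 267 lower, centring the arrays gave 443 and 415, no filter on dim probe sets 11 and 22 of 18194 genes, and only the 4 arrays 0 and 0. Leaving out each of the 6 arrays in turn gave 0 to 0 in both directions. The fits of 1 pair, added after seeing the data, gave 7 higher and 6 lower for the untreated pair and 5 and 4 for the IL-2 pair, all of them among the main calls. The 4-array and leave-one-out fits have fewer residual degrees of freedom, and more dim genes are tested without the filter. Whether these account for the lower counts was not tested. Quantile normalization (136 and 193), a filter on the mean (199 and 369), the mean of all probe sets (146 and 283), no cross-matching probe sets (141 and 250) and an intensity trend with robust variance (157 and 261) kept both counts within 1.5 times.

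The counts of genes 2-fold apart in both pairs were 110 to 162 higher and 185 to 236 lower under the alternative normalizations, filters and probe-set rules, and 55 and 89 at 3-fold. Genes past 2-fold in opposite directions numbered 2 after quantile normalization and 2 after centring, against 1. Each of the 101 called genes named in the text kept its direction in every one of the 16 settings that measured it, but not its call. The settings that change only the filter, the spread or the GFPfoxp3 arrays leave the difference as it was or nearly so, and cannot test its direction. Neither can the fits of 1 pair, since all 416 called genes had the same sign in both pairs. Under quantile normalization 15 lost their call (Ebi3, Il17a, Rora, Ccl5, Gpm6b, Sostdc1, Gzmk, Tnfsf14, Lgals3, Bcl2, Fos, Jun, Gbp6, Rrp12 and Wdr12). With the mean of all probe sets 10 lost it (Capg, Rora, Sostdc1, Itgb1, Jun, Skil, Pde7a, Rgs3, Gucy1a1 and Selp), without cross-matching probe sets 4 (Klf6, Pde7a, Mcm7 and Wdr12) and with an intensity trend 1 (Junb). Without the filter 87 lost it, in the fits of 1 pair 91 (untreated) and 92 (IL-2), and in the 4-array fit and each leave-one-out fit all 101. The cause of the losses under the first 4 settings was not tested. List medians moved by more than the SD between the pairs in 20 of 35 lists after centring and in 3 to 7 lists under the other settings. The IL-2 state, which forms the pairs of arrays, was a term of the main fit. No paired analysis was possible because, beyond that term, each group has 1 array and shares fewer than 2 replicate numbers with any other.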
